A study of Mus musculus with 6 samples.

Results

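The genes of cholesterol synthesis described here are Hmgcs1, Sqle, Idi1, Fdps, Fdft1, Lss, Cyp51 and Dhcr7, chosen by their symbols as 8 of the 33971 genes in the deposited table. All 8 were in the table and all 8 passed the filter on low counts, as did 20397 genes in all. The study asked how gene expression in articular cartilage of WT mice changes with age, and the data are RNA sequencing of cartilage from mice aged 2 months (3 libraries) and 18 months (3 libraries). Poly(A)-selected RNA went into strand-specific libraries with unique molecular identifiers in the adapters, read from both ends. The labels name no strain or sex, and do not say how many mice went into a library or whether the replicates of an age came from separate mice, so the spread between libraries may be partly technical. The libraries held 48171507 to 51683577 counts at 2 months and 55201357 to 59085179 at 18 months.

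Cholesterol is built from acetyl-CoA in a long chain of enzymes. The early enzymes make mevalonate and turn it into isoprenoid diphosphates, which also serve the prenylation of proteins and the making of ubiquinone and dolichol, and the late enzymes join farnesyl diphosphate into squalene, close the rings and trim lanosterol to cholesterol. When sterols in the endoplasmic reticulum are low, the carrier Scap brings the SREBP transcription factors to the Golgi, where proteases free them to switch on the enzymes of this chain, and Insig proteins hold them back when sterols are plentiful. Cartilage has no blood vessels, and its chondrocytes can make cholesterol or take it up from lipoproteins.

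SREBP factors bind sterol regulatory elements, often beside boxes for NF-Y and Sp1, so the stretches before 3 genes that were lower at 18 months are shown here as reference sequence. They come from RefSeq on GRCm38.p6, which gave windows for 5 of the 8 genes and none for Sqle, Fdps and Fdft1. Within 250 bases before each start, 3 motifs were searched on both strands: the sterol regulatory element as CACNCCAC, the NF-Y box as CCAAT and the GC box as GGGCGG. No match overlapped another, and capitals mark the matches on either strand. The Hmgcs1 stretch is chr13:119690101-119690350 on the plus strand, the Lss stretch chr10:76531355-76531587 on the plus strand, and the Cyp51 stretch chr5:4104747-4104947 on the minus strand. The last 2 end where the gene begins in GENCODE M21.
Hmgcs1: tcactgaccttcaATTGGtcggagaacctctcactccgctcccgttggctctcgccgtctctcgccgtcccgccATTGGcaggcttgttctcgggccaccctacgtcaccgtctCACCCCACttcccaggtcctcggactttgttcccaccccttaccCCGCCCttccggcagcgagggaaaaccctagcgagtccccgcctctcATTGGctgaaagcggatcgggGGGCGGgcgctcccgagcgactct
Lss: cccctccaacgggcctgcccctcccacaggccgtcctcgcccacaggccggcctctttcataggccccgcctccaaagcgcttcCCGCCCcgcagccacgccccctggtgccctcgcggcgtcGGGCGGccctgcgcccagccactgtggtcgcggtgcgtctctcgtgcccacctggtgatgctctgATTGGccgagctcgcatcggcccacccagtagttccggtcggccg
Cyp51: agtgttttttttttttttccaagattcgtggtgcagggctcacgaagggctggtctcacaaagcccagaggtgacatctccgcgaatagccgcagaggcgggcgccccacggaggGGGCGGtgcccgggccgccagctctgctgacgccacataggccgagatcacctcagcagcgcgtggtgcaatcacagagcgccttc

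The Hmgcs1 window was the only one of the members' windows with a match to CACNCCAC, as CACCCCAC from 136 to 129 bases before the start. Other forms of the sterol regulatory element were not searched, so a window without this match may still hold one. The Hmgcs1 window also held 3 NF-Y boxes and 2 GC boxes. The Lss window held 1 NF-Y box and 2 GC boxes. The Cyp51 window held 1 GC box, from 135 to 130 bases before the start, and 1 NF-Y box from 29 to 25 bases before it, which lies inside the gene as GENCODE draws it and is not shown. The Idi1 window held 2 NF-Y boxes and 1 GC box, and of the 3 windows of Dhcr7 the one that starts at 143829964 held 2 NF-Y boxes and 3 GC boxes. Of all 32851 windows in the RefSeq table, 5.29% held a match to CACNCCAC, 33.8% the NF-Y box and 32.7% the GC box. These matches describe letters in a window and were not tested for binding.

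Before the results, the makeup of the libraries is given in brief, since it divides with age. A list of 12 chondrocyte markers led by Col2a1 took 3.63% to 6.07% of the counts at 2 months and 0.0467% to 0.126% at 18 months, and 12 of 12 were lower. Neutrophil markers led by S100a9 took 0.00124% to 0.355% at 2 months and 4.01% to 4.30% at 18 months, and erythroid markers led by Hbb-bs took 0.0204% to 0.567% and 2.37% to 3.15%. In both lists the highest 2-month share was that of replicate 2, and of their members 0 of 10 and 2 of 9 were called. Macrophage markers led by C1qb (at most 0.0333% and 0.0618%) had 2 of 6 called higher, proliferation markers led by Pcna (0.00667% to 0.0747% and 0.233% to 0.259%) 4 of 6 higher, and osteoblast markers led by Ibsp (0.373% to 1.55% and 0.296% to 0.302%) 2 of 5 lower. B lymphocyte markers led by Cd79b and endothelial markers led by Pecam1 had 0 of 7 and 0 of 5 called, with at most 0.0232% and 0.0238% at 2 months, both in replicate 2. Of 2 adipocyte markers tested, 1 was higher (led by Fabp4, with Cidec at 0 at 18 months). Of 5 skeletal muscle markers tested, 4 were lower, with Myh1 and Myh4 at 0 at 18 months. The most abundant muscle marker, Mylpf, was not among those called (log2 fold change −0.59, adjusted p = 0.270, edgeR's quasi-likelihood test). Counts of Xist, which only an inactive X chromosome transcribes, ran from 88239 to 102417 at 2 months and from 11 to 30 at 18 months, while those of the Y-linked Ddx3y ran from 0 to 10 and from 4333 to 4839. The study's methods describe the mice as male, and the 2-month libraries go against that in both genes. Sex pattern and age therefore cannot be told apart in any comparison below, and in bulk cartilage fewer cells of a type cannot be told apart from less RNA per cell.

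In aged cartilage 4 of the 8 genes were lower and 1 was higher. Lss, Hmgcs1, Cyp51 and Sqle were lower, Fdps was higher, Fdft1 was modestly lower without reaching the fold limit, and Dhcr7 and Idi1 did not pass the test. A gene was called when its adjusted p-value from the quasi-likelihood test of edgeR, with Benjamini-Hochberg adjustment over all genes tested, was below 0.05 and its log2 fold change, 18 months against 2 months, was above 1 or below −1. Of all genes tested 36.3% were called, 14.9% higher and 21.3% lower, so 5 of 8 stands beside 36.3%, 4 of 8 lower beside 21.3% and 1 of 8 higher beside 14.9%. With the adjusted p-value alone 1 gene was higher, 5 were lower and 2 did not pass, beside 51.3% of all genes past that limit, 23.4% higher and 27.9% lower. Over the 8 genes the log2 fold change had a median of −0.77, against −0.02 over all genes tested. The values of every library are drawn in the plot of CPM by gene and age.

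**Figure D1:**
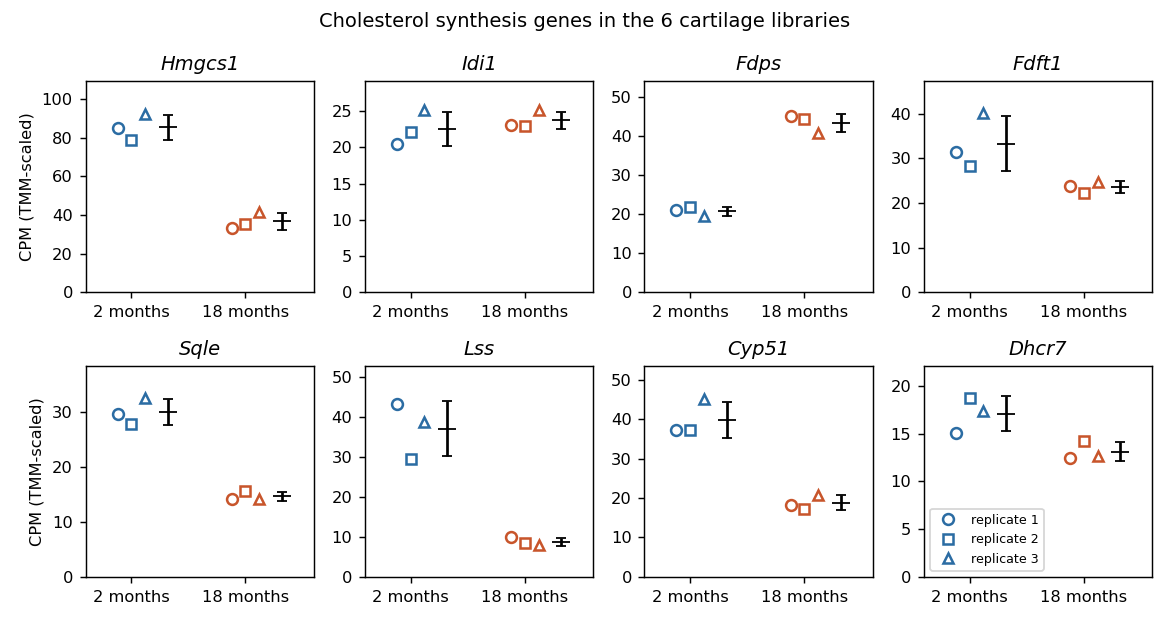
CPM (TMM-scaled counts, linear axes from 0) of the 8 genes in the 3 libraries of each age, with circles, squares and triangles for replicates 1, 2 and 3, and black bars for the mean ± SD of 3 libraries. The ages are apart for 7 genes, 6 lower and 1 (Fdps) higher at 18 months, and overlap for Idi1.

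Hmgcs1 (ENSMUSG00000093930, chr13:119690379-119708260, plus strand) encodes the cytosolic synthase that makes HMG-CoA at the start of the chain. It had 3863, 4196 and 4254 counts at 2 months and 2046, 1982 and 2334 at 18 months. As CPM, counts relative to the library total after scaling with TMM factors, this was 85.1, 79.0 and 92.1 at 2 months against 33.0, 35.5 and 41.3 at 18 months. The ranges lay far apart, and each 18-month library was below each 2-month library. The level was 2.33-fold lower at 18 months (log2 fold change −1.22, SE 0.13, adjusted p = 0.0016, edgeR's quasi-likelihood test). The fall was called in all 15 alternative fits, between −1.58 and −1.05. The antisense gene Gm48342, which spans 6190 bases within it, had 20 to 28 counts at 2 months and 2 to 7 at 18 months.

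Idi1 (ENSMUSG00000058258, chr13:8885501-8892451, plus strand) encodes the isomerase that interconverts the isopentenyl and dimethylallyl diphosphates. It had 20.5, 22.1 and 25.1 CPM at 2 months and 23.1, 23.0 and 25.1 CPM at 18 months. The 2 ages overlapped, and the 18-month libraries lay within the upper part of the 2-month range or at its edge. The log2 fold change was 0.07 (SE 0.12, adjusted p = 0.650, edgeR), and its sign turned under 2 alternatives, with −0.03 among genes averaging 1 FPKM or more and −0.28 on TPM.

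Fdps (ENSMUSG00000059743, chr3:89093588-89101959, minus strand) encodes farnesyl diphosphate synthase, which supplies both the sterol branch and protein prenylation. Its counts were 951, 1154 and 896 at 2 months and 2787, 2475 and 2298 at 18 months. In CPM these were 21.0, 21.7 and 19.4 against 45.0, 44.3 and 40.7. Fdps was the only one of the 8 genes with every 18-month library above every 2-month library. It was 2.09-fold higher (log2 fold change 1.07, SE 0.10, adjusted p = 0.0014, edgeR). The adjusted p-value stayed below 0.05 in all 15 alternatives, while the fold limit was missed in 3, with 0.96 among genes averaging 1 FPKM or more, 0.98 with a pseudocount of 1 FPKM and 0.71 on TPM. On TPM the median of all genes itself moved to −0.33, and relative to it Fdps stood at 1.04. Gm43738, on the same strand, shares 7512 bases with Fdps and had 25 counts in 2-month replicate 1 and 0 in the other 5 libraries.

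Fdft1 (ENSMUSG00000021273, chr14:63145150-63179578, minus strand) encodes squalene synthase, the first enzyme committed to sterols. It had 31.3, 28.2 and 40.2 CPM at 2 months and 23.7, 22.2 and 24.7 CPM at 18 months. The 2-month libraries spread widely, with replicate 3 on top, but none fell into the 18-month range. The log2 fold change was −0.50 (SE 0.16, adjusted p = 0.043, edgeR), short of the fold limit. Its adjusted p-value was below 0.05 in 4 of the 15 alternatives, between 0.0082 and 0.137 in all. Its last 774 bases overlap Ctsb on the opposite strand, a lysosomal protease gene with 18796 to 33276 counts at 2 months and 50481 to 54744 at 18 months. Whether the counting used strand is not given in the sources used here, so reads of the overlap cannot be assigned, and the part of Ctsb in the Fdft1 values was not tested.

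Sqle (ENSMUSG00000022351, chr15:59315077-59331192, plus strand) encodes squalene epoxidase, a rate-limiting oxygenase of the late chain. Its counts were 1344, 1478 and 1502 at 2 months and 880, 874 and 796 at 18 months, or 29.6, 27.8 and 32.5 CPM against 14.2, 15.6 and 14.1 CPM. Both groups were tight and far apart. It was 2.05-fold lower (log2 fold change −1.03, SE 0.12, adjusted p = 0.0020, edgeR). The value sits at the fold limit: 7 of the 15 alternatives gave a log2 fold change short of it, and the range over them all was −1.38 to −0.73, with adjusted p-values of at most 0.017. Without 2-month replicate 3 it was −0.97 and without 18-month replicate 3 −0.998, which is just inside the limit.

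Lss (ENSMUSG00000033105, chr10:76531588-76557138, plus strand) encodes lanosterol synthase, which closes the sterol rings. Its counts were 1959, 1565 and 1789 at 2 months and 612, 478 and 445 at 18 months. In CPM these were 43.2, 29.5 and 38.7 against 9.87, 8.55 and 7.88. The lowest 2-month library, replicate 2, still lay far above all 18-month libraries. Lss was 4.23-fold lower, the largest difference among the 8 genes in the edgeR fit (log2 fold change −2.08, SE 0.19, adjusted p = 0.0013). It was called in all 15 alternatives, between −2.37 and −1.17, the smallest with a pseudocount of 1 FPKM. The antisense gene 4930483K19Rik, which shares 11268 bases with it, had 0 to 15 counts at 2 months and 0 at 18 months.

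Cyp51 (ENSMUSG00000001467, chr5:4081145-4104746, minus strand) encodes lanosterol 14-alpha-demethylase, a cytochrome P450. It had 37.3, 37.2 and 45.1 CPM at 2 months and 18.3, 17.2 and 20.9 CPM at 18 months. Replicate 3 was the highest library at either age, and the ages stayed apart. It was 2.12-fold lower (log2 fold change −1.08, SE 0.14, adjusted p = 0.0025, edgeR). The fold limit was missed in 3 of the 15 alternatives, and without 2-month replicate 3 the log2 fold change was −0.99. Its end shares 166 bases with the end of Akap9 on the opposite strand, which had 5503, 5903 and 5757 counts at 2 months and 3343, 2101 and 2301 at 18 months (log2 fold change −1.43, adjusted p = 0.0020, edgeR). As for Fdft1, reads of the overlap cannot be assigned, and the part of Akap9 in the Cyp51 values was not tested.

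Dhcr7 (ENSMUSG00000058454, chr7:143823145-143848410, plus strand) encodes the reductase that ends the Kandutsch-Russell branch by making cholesterol from 7-dehydrocholesterol, the precursor of vitamin D. It had 15.1, 18.7 and 17.4 CPM at 2 months and 12.4, 14.2 and 12.7 CPM at 18 months. The ranges did not overlap, but the gap between 15.1 and 14.2 CPM was smaller than the spread within either age. The log2 fold change was −0.38 (SE 0.14, adjusted p = 0.071, edgeR), past 0.05 in 2 of the 15 alternatives.

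Counted by overlap alone, the CPM ranges were apart for 7 of the 8 genes, 1 higher and 6 lower, beside 68.6% of all genes tested, 33.9% higher and 34.6% lower. Leaving out 2-month replicate 2, the library with the most marrow markers at that age, gave the same 1 gene higher and 4 lower, with log2 fold changes of −1.25 for Hmgcs1, −1.06 for Sqle, −2.20 for Lss, −1.11 for Cyp51 and 1.13 for Fdps. That library was the 2-month library nearest to the 18-month mean for 6 of the 8 genes, all but Idi1 and Dhcr7. Among the 20 synthesis genes that include these 8 it was nearest for 13, and the share over all genes was not counted. The same library also held the highest 2-month share of chondrocyte markers (6.07%) and of osteoblast markers (1.55%). The part of marrow RNA, or of any other cells, in this was not tested. Without 2-month replicate 3, 3 genes were called, Hmgcs1 and Lss lower and Fdps higher. Over all genes that fit called 5640, 2141 higher and 3499 lower, against 7401 with all libraries.

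Levels can be set side by side between genes only per length, here as FPKM. At 2 months Hmgcs1 was the highest of the 8 with 15.8 ± 0.615 FPKM (SD, n = 3). Then came Cyp51 with 7.67 ± 0.724, Fdft1 with 6.84 ± 1.03, Idi1 with 5.47 ± 0.564 and Sqle with 4.59 ± 0.210 FPKM. The lowest were Fdps with 4.18 ± 0.453, Lss with 2.91 ± 0.414 and Dhcr7 with 2.50 ± 0.391 FPKM. Among neighbours in this order the library ranges overlapped for Cyp51 and Fdft1, for Sqle and Fdps, and for Lss and Dhcr7.

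At 18 months the order by FPKM was another one. Fdps led with 9.24 ± 0.649 FPKM (SD, n = 3), followed by Hmgcs1 with 7.15 ± 0.719, Idi1 with 6.07 ± 0.262 and Fdft1 with 5.13 ± 0.300 FPKM. Cyp51 had 3.82 ± 0.357, Sqle 2.37 ± 0.127, Dhcr7 2.02 ± 0.128 and Lss 0.728 ± 0.101 FPKM. No neighbours overlapped in this order. Fdps thus moved from place 6 to place 1 and Lss from place 7 to place 8. Summed over the 8 genes the FPKM values were 47.3, 49.8 and 52.8 at 2 months and 36.8, 35.6 and 37.2 at 18 months, and their share of all counts 0.0266% to 0.0298% and 0.0183% to 0.0190%. The sum of 20 synthesis genes, these 8 and 12 others, went the other way, with 120, 135 and 127 FPKM at 2 months and 178, 182 and 179 FPKM at 18 months. Lbr, described with the other enzymes, held 12.8, 23.9 and 11.9 FPKM of it at 2 months and 79.5, 86.1 and 87.7 FPKM at 18 months. Without Lbr the other 19 genes summed to 107, 111 and 115 FPKM at 2 months. At 18 months they summed to 98.1, 95.5 and 91.8 FPKM, lower as for the 8 genes. All genes together summed to 269587 to 293108 FPKM at 2 months and to 360503 to 387502 FPKM at 18 months. The rise of the 20-gene sum therefore depends on the scaling. As a share of all counts the 20 genes took 0.0583% to 0.0645% at 2 months and 0.0838% to 0.0868% at 18 months.

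These levels depend on the length that FPKM divides by. The lengths implied by the deposited counts and FPKM were 1.10 to 1.17 times the union of all exons annotated in GENCODE M21, retained introns included, and for Fdps this union of 4208 bases is far longer than its longest coding transcript of 1382 bases. For Lss the lengths were 10787 and 4667 bases. A scale of CPM per kilobase of the longest coding transcript, added after the values had been seen, put Hmgcs1 at 24.7 ± 1.89 and Fdps at 15.0 ± 0.862 (SD, n = 3) at 2 months, so that Fdps stood in place 2 rather than 6. At 18 months Fdps had 31.3 ± 1.66, Hmgcs1 10.6 ± 1.24 and Lss 1.88 ± 0.217 on that scale, in places 1, 2 and 8 as by FPKM. The choice of length shifts a gene's level at both ages alike and leaves its difference between the ages as it was.

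**Figure D2:**
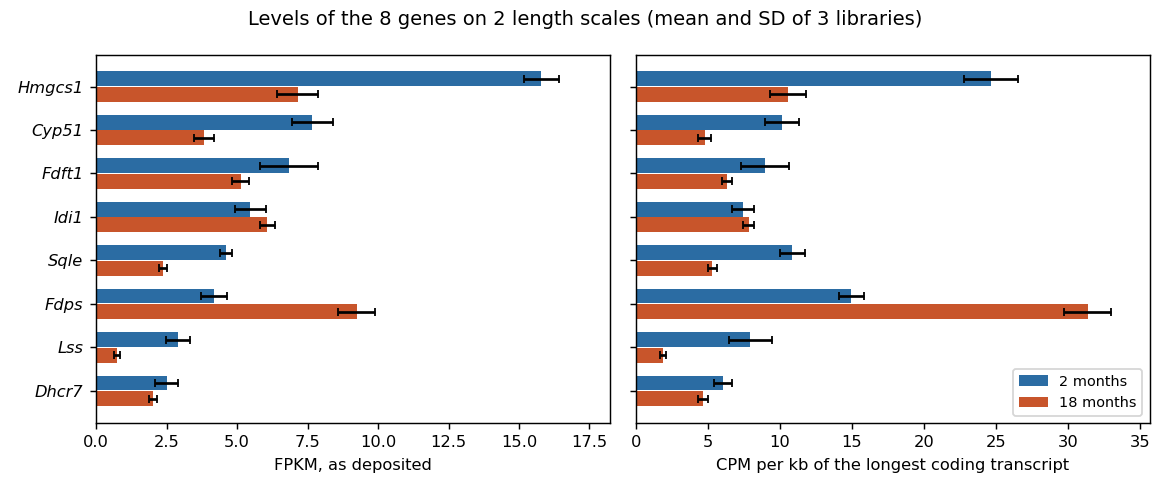
Mean level ± SD of 3 libraries per age for each of the 8 genes, as deposited FPKM (left) and as CPM per kilobase of the longest coding transcript (right), both from 0. Hmgcs1 is highest at 2 months and Fdps at 18 months on both scales, while the place of Fdps at 2 months differs, 6 by FPKM and 2 per coding kilobase.

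Because the genes moved apart, their ratios within a library differed sharply between the ages, and a ratio of FPKM values in 1 library does not depend on the scaling of that library. The genes of each ratio were picked after their values had been seen, so the ratios are a description. The Fdps to Hmgcs1 ratio was 0.268, 0.300 and 0.229 at 2 months and 1.49, 1.36 and 1.07 at 18 months, so that Hmgcs1 exceeded Fdps in every 2-month library and fell short of it in every 18-month library. The Fdps to Lss ratio went from 1.24, 1.89 and 1.28 to 11.7, 13.3 and 13.3, and the Idi1 to Hmgcs1 ratio from 0.316, 0.366 and 0.357 to 0.915, 0.848 and 0.795. With 3 libraries against 3, no exact two-sided permutation test can give a p-value below 0.1.

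**Figure D3:**
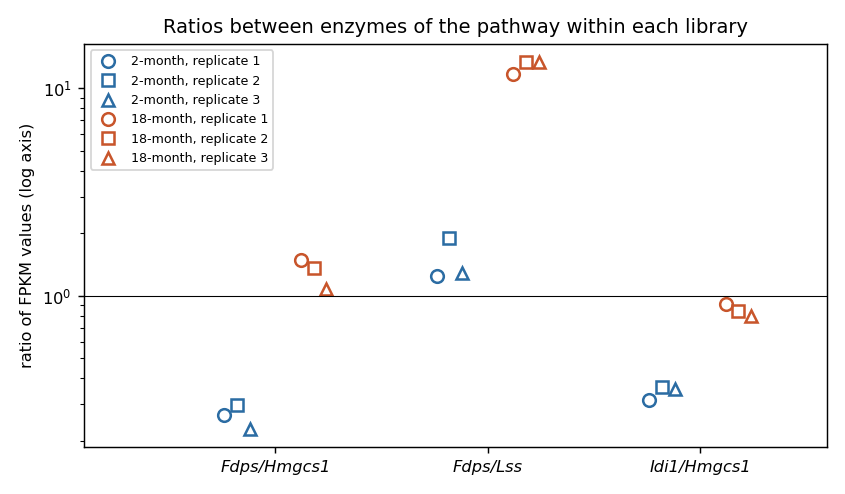
Ratios of FPKM values between enzymes within each library, on a log axis, with 2-month libraries in blue and 18-month libraries in orange and shapes for replicates. The 18-month libraries lie above the 2-month libraries for all 3 ratios shown, from 0.229 to 0.300 up to 1.07 to 1.49 for Fdps to Hmgcs1.

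Of 12 other genes of synthesis, taken by their place in the chain, 2 were called higher and 0 lower. Over all genes tested these shares were 14.9% and 21.3%. The median log2 fold change of the 12 was −0.40. By adjusted p-value alone 3 were higher, 5 lower and 4 did not pass, beside 23.4% higher and 27.9% lower of all genes tested. The 2 that were called higher were Lbr and Mvd. These 12 and the 8 genes are not the whole chain, and together 3 of the 20 were called higher and 4 lower. These counts are close to the 14.9% and 21.3% of all genes tested. The plot of log2 fold changes in pathway order shows called genes of either direction in both stretches.

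**Figure D4:**
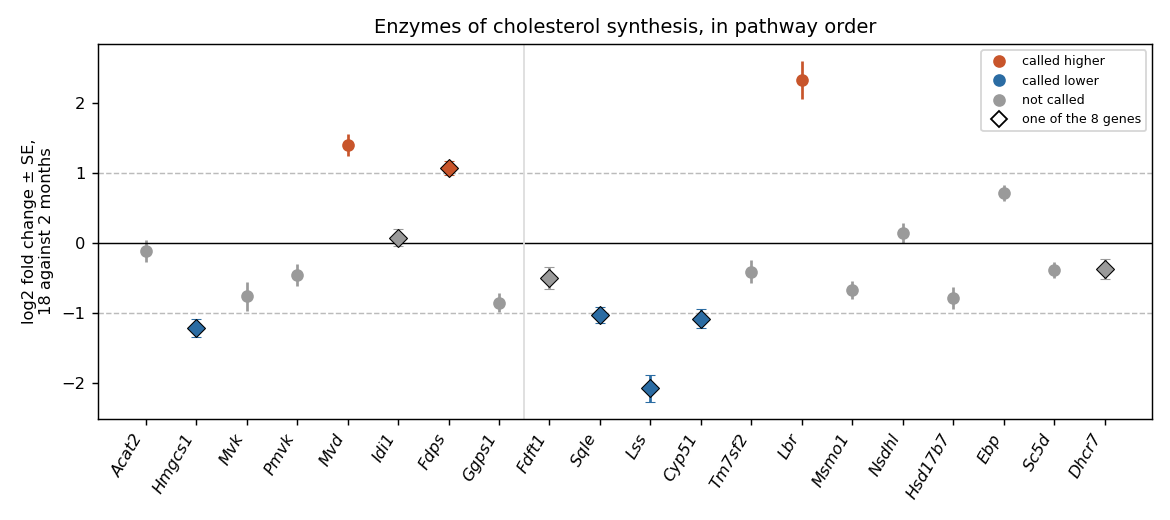
Log2 fold change ± SE (18 against 2 months, edgeR) of 20 enzymes of the chain in pathway order, with diamonds for the 8 genes and dashed lines at the fold limit of 1 and −1. A grey line parts early from late steps, and genes called higher are Mvd, Fdps and Lbr and genes called lower Hmgcs1, Sqle, Lss and Cyp51.

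Lbr, the lamin B receptor, is both a sterol reductase and a protein of the nuclear envelope known for its role in the nuclear shape of neutrophils. Its counts were 3352, 6649 and 3173 at 2 months and 25453, 25778 and 26606 at 18 months, 5.02-fold higher (log2 fold change 2.33, SE 0.27, adjusted p = 0.0020, edgeR). Its highest 2-month value was in replicate 2, the library of that age with the most neutrophil markers, and their part in the rise was not tested. Tm7sf2, the other sterol 14-reductase, had 525, 616 and 594 counts against 499, 566 and 501 (log2 fold change −0.41, adjusted p = 0.075, edgeR).

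Mvd, which makes isopentenyl diphosphate from the phosphorylated mevalonate, had 252, 296 and 308 counts against 1016, 875 and 832 and was 2.63-fold higher (log2 fold change 1.39, SE 0.16, adjusted p = 0.0019, edgeR). Lbr and Mvd were called higher in all 15 alternatives. Ebp, the sterol isomerase on the X chromosome, had a log2 fold change of 0.71 (adjusted p = 0.0051, edgeR). Lower by adjusted p-value but short of the fold limit were Ggps1 (−0.86), which makes geranylgeranyl diphosphate, Hsd17b7 (−0.79), Mvk (−0.76), Msmo1 (−0.67) and Sc5d (−0.39). Acat2 (−0.12), Pmvk (−0.46) and the X-linked Nsdhl (0.13) did not pass.

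Of the 7 genes of sterol sensing 4 were called lower and 0 higher, beside 21.3% and 14.9% of all genes tested. The median log2 fold change of the 7 was −1.18. Insig1 had 4541, 4190 and 4117 counts at 2 months and 1683, 1687 and 1598 at 18 months, 3.13-fold lower (log2 fold change −1.65, SE 0.12, adjusted p = 9.6e-04, edgeR). Insig2 had 8507, 6176 and 7670 counts against 3221, 2777 and 2863 (−1.62, SE 0.19, adjusted p = 0.0021, edgeR). The transcripts of both retention proteins were lower in each 18-month library than in any 2-month library. Srebf1, the SREBP gene tied mostly to fatty acid synthesis, had 5336, 4249 and 5635 counts against 3409, 2337 and 2479 (−1.18, SE 0.21, adjusted p = 0.0061, edgeR). Mbtps1, the Golgi protease that makes the first cut in SREBP, was 2.48-fold lower (−1.31, SE 0.13, adjusted p = 0.0016, edgeR). Srebf2, the SREBP gene tied mostly to cholesterol synthesis, was lower by adjusted p-value only (−0.44, SE 0.10, adjusted p = 0.014, edgeR), with 15.9 ± 0.500 FPKM at 2 months and 12.4 ± 1.05 FPKM at 18 months (SD, n = 3). Scap (−0.18) and the X-linked protease gene Mbtps2 (−0.23) did not pass.

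Of 9 genes of uptake and transport within the cell 1 was called higher and 3 lower, beside 14.9% and 21.3% of all genes tested. The median log2 fold change of the 9 was −0.14. Vldlr, a receptor for triglyceride-rich lipoproteins, had 9957, 8050 and 7353 counts at 2 months and 2214, 1013 and 955 at 18 months, 7.49-fold lower (−2.91, SE 0.36, adjusted p = 0.0023, edgeR). Lrp1, a large endocytic receptor for many ligands beside lipoproteins, had 51866, 52335 and 62143 counts against 16151, 8727 and 9116, 6.01-fold lower (−2.59, SE 0.27, adjusted p = 0.0017, edgeR). In both, 18-month replicate 1 was the highest library of its age.

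Mylip, a ubiquitin ligase that sends lipoprotein receptors to degradation, was lower as well, with 6213, 4299 and 5316 counts against 2555, 2512 and 2340 (log2 fold change −1.38, SE 0.21, adjusted p = 0.0038, edgeR). Lipa, the lysosomal acid lipase that frees cholesterol from its esters, was higher, with 478, 1475 and 578 counts against 3114, 2654 and 2558 (1.49, SE 0.39, adjusted p = 0.022, edgeR). The 1475 counts were those of replicate 2, and the Lipa call was lost when 2-month replicate 3 or any of the 18-month libraries was left out, with adjusted p-values up to 0.074. Stard3, which tethers late endosomes to other membranes, was higher by adjusted p-value only (0.78, adjusted p = 0.0058), and Npc1, the sterol exporter of the lysosome, lower (−0.41, adjusted p = 0.027). Its partner Npc2 (0.86, adjusted p = 0.051), Scarb1 (−0.05) and Stard4 (−0.14) did not pass in the edgeR fit. Without 2-month replicate 2 Npc2 was called higher (1.26, adjusted p = 0.0011, edgeR).

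Of the 8 genes of storage, efflux and oxysterols 7 were tested. Of these, 2 were called higher and 0 lower, beside 14.9% and 21.3% of all genes tested. The median log2 fold change of the 7 was 0.44. Apoe, the apolipoprotein of lipoprotein particles made outside the liver too, had 9080, 17615 and 13894 counts at 2 months and 39949, 31707 and 31186 at 18 months (1.08, SE 0.22, adjusted p = 0.0099, edgeR). Abcg1, a cholesterol exporter, had 195, 653 and 276 counts against 1931, 1127 and 1155 (1.67, SE 0.44, adjusted p = 0.024, edgeR). The exporter Abca1 went the other way, with 3137, 4713 and 3233 counts against 2526, 2113 and 2262 (−0.94, SE 0.13, adjusted p = 0.0032, edgeR), short of the fold limit. Abcg1 was called in 9 of the 15 alternatives. It was lost without 2-month replicate 3 or any of the 18-month libraries, with adjusted p-values up to 0.082, with the replicate number as a block (adjusted p = 0.057, edgeR) and on TPM (adjusted p = 0.055, limma), while Apoe was called in 12, with 0.90 without 2-month replicate 1. Soat1, which esterifies cholesterol for storage, was higher by adjusted p-value only (0.63, adjusted p = 0.012). The oxysterol receptor genes Nr1h2 (0.14) and Nr1h3 (−0.57) and the oxysterol-forming Cyp27a1 (0.44) did not pass, and Ch25h, with 0 to 14 counts at 2 months and 0 at 18 months, was too low to test. Without 2-month replicate 1 Abca1 was called lower at −1.004, and without 18-month replicate 1 Nr1h3 was called lower at −1.02 (adjusted p = 0.017, edgeR). Apoe, Abcg1 and Lipa are also expressed by macrophages, whose markers were higher in the 18-month libraries, and the part of those cells was not tested.

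**Figure D5:**
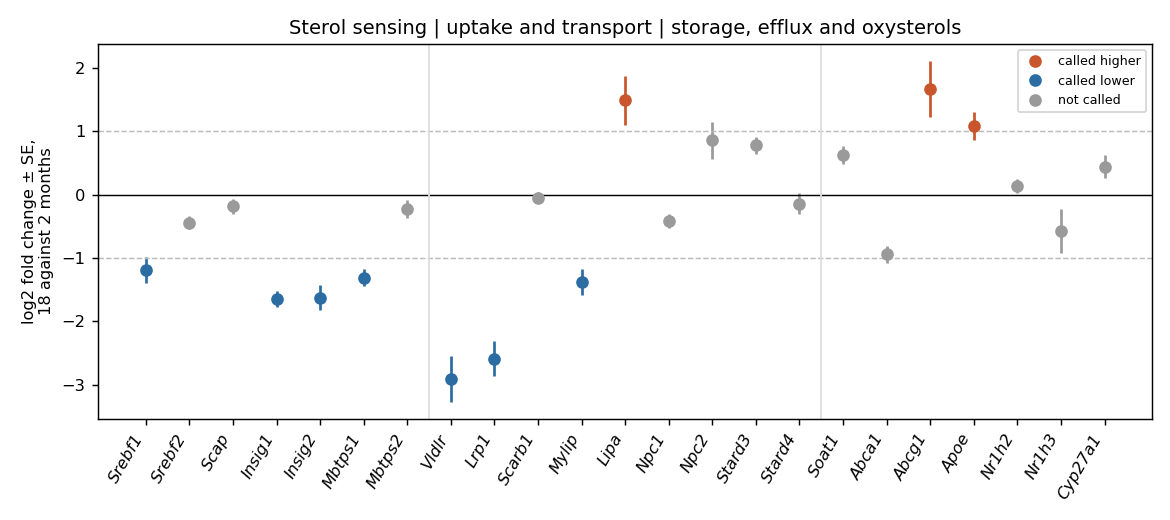
Log2 fold change ± SE (18 against 2 months, edgeR) of 23 tested genes of sterol sensing, of uptake and transport, and of storage, efflux and oxysterols, in 3 blocks parted by grey lines, with dashed lines at the fold limit of 1 and −1. All 7 sensing genes lie below 0, and the lowest values are those of Vldlr (−2.91) and Lrp1 (−2.59).

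Over the 36 pathway genes reported beside the 8, 35 were tested, and 5 were called higher and 7 lower, beside 14.9% and 21.3% of all genes tested, with a median log2 fold change of −0.39. These counts are close to those shares. Without 2-month replicate 3 or any 1 of the 18-month libraries 3 were called higher. Of all genes 2095 to 2408 were called higher in those fits, against 3047 with all libraries. On TPM the count was 3 higher and 12 lower, with the median of all genes at −0.33. Of all genes 3109 were called higher and 5819 lower on TPM, against 3047 and 4354 in the edgeR fit.

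The genes most like the mean of the 8 in their pattern over the 6 libraries were sought among 13857 tested genes averaging 1 FPKM or more, by Pearson's r of log2 CPM. The closest were Afdn, Ogn, Ramp2, 4931406P16Rik and Gpsm1, with r from 0.998 to 0.9996 over 6 libraries and log2 fold changes of −1.85, −3.45, −1.71, −1.49 and −2.35. The mean of the 8, as centred log2 CPM, was 0.29, 0.24 and 0.43 in the 2-month libraries and −0.33, −0.33 and −0.30 in the 18-month libraries, so these correlations mostly follow the split by age and are a description of 6 points.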

How the data were processed

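RNA of articular cartilage from WT mice aged 2 and 18 months was sequenced in 3 libraries per age. The table the authors deposited holds raw counts (whole numbers) and FPKM values, counts divided by gene length and library total, for each gene in each library. Per the submitters' processing notes, cutadapt 1.9, HISAT2 2.0.4, UMI-tools, StringTie 1.3.4d, DESeq2 and edgeR were used, with no role named. The genome build and the use of strand or molecular identifiers in counting are not given in the sources used here. The positions of the 8 genes are identical to those of GENCODE M21, so GRCm38 is given. All libraries were used, with 0 columns left out.

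The test on counts was that of edgeR 4.0.16 in R 4.3.3 (TMM normalization, filterByExpr, quasi-likelihood test, no replicate block) over 20397 genes, with Benjamini-Hochberg adjustment. The SE is the log2 fold change over the square root of its F statistic. The limits were an adjusted p of 0.05 and a log2 fold change of 1. Alternatives were DESeq2 1.42.0, median-of-ratios size factors, total counts alone, no filter, genes averaging 1 FPKM or more, limma 3.58.1 on log2(FPKM + 0.1), log2(FPKM + 1) and log2(TPM + 0.1), a replicate block and leaving out each library, 15 fits in all. The scripts were also checked on simulated data. Tables used pandas 2.3.3 and the R package data.table, version 1.17.8, and figures Python 3.11.15 and matplotlib 3.10.9.

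Named are the 8 genes, called genes of the pathway list and any other of its genes, the most abundant marker of each list, Xist, and the 5 genes most like the 8 in pattern. Ddx3y and the genes that overlap members were named after values had been seen, and so were the FPKM ratios. The 8 genes and the lists were chosen with earlier results of these data known. Some genes of the pathway list are not reported here, and its counts and medians leave them out.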

Additional observations from a re-analysis of the deposited data

How the results depend on the processing

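Of the 8 genes 5 were called, 1 higher and 4 lower. Leaving out each library in turn gave 3 to 5 called, 1 to 1 higher and 2 to 4 lower, with 3 called and 2 lower without 2-month replicate 3. Limma on log2(FPKM + 0.1) called 3, with 2 lower, beside 8624 of all genes, 4365 higher and 4259 lower. Limma on log2(FPKM + 1) called 2, with 0 higher and 2 lower, beside 5258 of all genes. A mean FPKM of at least 1 and limma on log2(TPM + 0.1) each gave 0 higher, beside 2125 and 3109 of all genes higher. On TPM 3 of the pathway list were higher in place of 5 and 12 lower in place of 7, beside 5819 of all genes lower. Without 1 library the pathway list gave 10 to 13 called, 3 to 6 higher and 7 to 8 lower. Over all genes 7401 were called, 3047 higher and 4354 lower, against 5640 to 9583 without 1 library (2095 to 5007 higher and 3499 to 4576 lower), with 5007 higher and 4576 lower without 2-month replicate 2. With a pseudocount of 1 FPKM 3041 were higher and 2217 lower. The share of called genes that were higher was 41.2% in the edgeR fit, 52.2% without 2-month replicate 2 and 57.8% with a pseudocount of 1 FPKM. The cause of these shifts was not tested.

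Signs that turned belonged to genes that passed the test in no fit. Scarb1 was at 0.033 with DESeq2, 0.027 with total counts alone, 0.031 and 0.028 with limma at pseudocounts of 0.1 and 1 FPKM, 0.0074 with median-of-ratios size factors and −0.085 to 0.0077 without 1 library, the highest without 18-month replicate 3. Idi1 was at −0.033 with a mean FPKM of at least 1. On TPM, where the median of all genes moved to −0.33, Idi1 was at −0.28, Nsdhl at −0.22 and Nr1h2 at −0.22.

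The replicate numbers did not pair the libraries, since deviations of same-numbered libraries correlated at 0.03, 0.04 and −0.02. With the replicate number as a block 5 of the 8 genes were called (1 higher and 4 lower), 11 of the pathway list (4 and 7) and 6032 of all genes (2523 and 3509). The libraries of an age differed by more than counting noise, with a median chi-square per gene of 6.25 to 51.7 times that expected, and were kept apart.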
